A study of Mus musculus with 4 samples.

Results

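The regions described here are the differential peaks of 2 histone marks that lie at 8 genes of the p53 and DNA damage response in aorta macrophages of the mouse. A peak was taken if the gene tables of the study pair it with Btg2, Trp53inp1, Mir34a, Nbn, Bard1, Pcna, Ddb1 or Dcaf12 and its name stands in the deposited lists. The H3K9ac table was held in part, so further peaks of these genes may stand in the rest. This gave 10 peaks out of 21089 in all, of which 9 belong to H3K9ac (20943 listed peaks) and 1 to H3K27me3 (146 listed peaks). The samples were CD11b+ cells, drawn by magnetic beads from digested aortas of C57BL/6J mice after 20 weeks of chronic intermittent hypoxia (CIH) or of room air (RA). In CIH, periods of 90 seconds at 6.1% oxygen took turns with 90 seconds at 21% for 12 hours a day, with 21% in the remaining hours, while RA mice were kept at 21%. Other myeloid cells also carry CD11b, and the lists hold only regions that differ, so the cell type could not be checked against its defining genes. Chromatin of each exposure was precipitated with an antibody to each mark, giving 4 libraries, with 1 for every mark and exposure and no input. One title spells the repressive mark H3K72me3, while its antibody label reads H3K27me3, which is used here. Whether the mice of an exposure were pooled into a library is not stated in the sources used here.

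The protein p53 is a transcription factor that DNA damage and other stresses stabilise, and its targets halt the cell cycle, aid repair or start cell death. Breaks in DNA are sensed by the complex of MRE11, RAD50 and NBN, which activates the kinase ATM, and BARD1 is the obligate partner of BRCA1 in repair by recombination. PCNA is the sliding clamp of replication and repair, and DDB1 is the adaptor that links CUL4 ubiquitin ligases to substrate receptors such as DCAF12. Acetylation of H3K9 is found at active promoters and enhancers, whereas H3K27me3 is the mark of Polycomb repression.

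Each mark has 1 list, in which a peak is marked as higher in CIH or higher in RA. The sign was read with the direction given in the gene tables, which was the same for all 483 H3K9ac and 117 H3K27me3 peaks that could be compared. The lists give no read counts, and those of the gene tables were not used here, so no depth is given for a peak, and as no exposure has a second library of a mark, no replicate error and no test can be given. A direction below is that of 2 libraries, and every listed peak had already been called different.

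Of the 9 H3K9ac peaks, 7 were higher in CIH, while the other 2 carried more of the mark in RA. Across the whole list, 45.4% of the peaks had the direction of CIH and 54.6% that of RA. The 7 peaks with more of the mark in CIH belong to 5 genes, as Btg2 has 3 of them, and Trp53inp1, Nbn, Ddb1 and Dcaf12 have 1 each. The peaks of Mir34a and Pcna were the ones higher in RA. The only H3K27me3 peak, that of Bard1, was higher in RA, as were 63.7% of the H3K27me3 list. The 8 genes were chosen with their directions known, so these counts describe them and support nothing further.

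The names of the genes need care, because 5 of the 10 peaks are paired with a neighbouring gene as well. The Pcna peak is also paired with Tmem230, the Nbn peak with Decr1, the Dcaf12 peak with Ubap1, the Mir34a peak with Gpr157 and the Bard1 peak with Abca12. In the GRCm38.p6 annotation of RefSeq each of these pairs lies on 1 chromosome with no other protein-coding gene between, Nbn and Decr1 being parted by the microRNA gene Mir6400. The other 5 peaks, those of Btg2, Trp53inp1 and Ddb1, are paired with no second gene, and all 5 were higher in CIH. They belong to 3 genes, chosen with their directions known. In the H3K9ac table held, 48.9% of the peaks were higher in CIH, and the share among peaks paired with 1 gene was not computed.

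Mir34a encodes a microRNA that p53 induces and that lowers the messages of cell cycle and survival genes. Its peak, higher in RA, lies on chromosome 4 of mm9 (chr4:149461151-149462100, 950 bp). RefSeq gives 2 mature forms, shown here because the gene is known by its product, with the seed (bases 2 to 8) in capitals:
miR-34a-5p: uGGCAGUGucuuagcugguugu
miR-34a-3p: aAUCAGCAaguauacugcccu

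The letters of the peak itself, however, match another gene. The first 399 bases of each cut sequence were available, and in the Mir34a peak bases 212 to 399 are the same as the first 188 bases of the RefSeq promoter of Gpr157, an orphan G protein-coupled receptor gene. That promoter window lies at chr4:150087253-150087552 of GRCm38.p6 on the plus strand, and in the same build the miR-34a hairpin ends 18697 bp before it. The stretch below, chr4:149461250-149461549 of mm9, plus strand, is printed because it shows what the peak covers, with the shared bases in capitals:
Mir34a peak: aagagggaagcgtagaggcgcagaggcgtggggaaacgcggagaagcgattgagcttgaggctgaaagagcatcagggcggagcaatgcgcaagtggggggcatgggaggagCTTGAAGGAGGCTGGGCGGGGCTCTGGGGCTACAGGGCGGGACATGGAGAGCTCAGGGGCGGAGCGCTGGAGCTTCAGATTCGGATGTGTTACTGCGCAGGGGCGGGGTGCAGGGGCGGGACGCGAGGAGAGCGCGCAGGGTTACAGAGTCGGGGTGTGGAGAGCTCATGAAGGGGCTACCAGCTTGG

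A RefSeq promoter was found in this way, with at least 50 bases shared, in 26.4% of the 235 H3K9ac sequences higher in CIH and in 25.1% of the 247 higher in RA. None of the other 9 peaks, that of Bard1 included, held one within its available bases. This says only that no promoter of the reference was found in the bases read. Of each H3K9ac peak, 23.5% to 42% could be read. Promoters of 5 of the 8 genes were in the reference. Those of Trp53inp1, Nbn and Mir34a were not used here, so these peaks could not match a promoter of their own gene.

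Btg2, an antiproliferative gene that p53 induces, had 3 peaks in the part of the gene table held, and the other genes had 1 each. The peaks of Btg2 lie on chromosome 1, at chr1:135974451-135975600, chr1:135989251-135990750 and chr1:135995601-135996600 of mm9, and are 1150, 1500 and 1000 bp wide. The first and the second are 13650 bp apart, and the second and the third 4850 bp. A further peak of 400 bp, also higher in CIH, starts 150 bp after the first one ends. Before them, 15850 bp away, stands a peak of 750 bp higher in CIH, which directly adjoins a peak of 1050 bp higher in RA.

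Read along the chromosome, the 9 listed peaks of the Btg2 region thus came as 3 higher in RA, then 5 higher in CIH, then again 1 higher in RA. Together, those of CIH covered 4800 bp, and those higher in RA covered 2150 bp, within 82 kb. The run of 5 spans 38750 bp. Runs of this kind, consecutive H3K9ac peaks of 1 direction with at most 50 kb to the next, were defined after seeing the data. They were mostly short in the list. Of the peaks higher in CIH, 70.1% formed a run of 1, with no adjacent listed peak of the same direction within 50 kb. In runs of 5 or more were 0.726%. With links of at most 20 kb, the Btg2 run kept its 5 peaks, and 0.105% of the peaks higher in CIH were in such runs. The genes were chosen with their directions known, and in the list a touching peak of the other direction ends a run. The share of peaks in long runs, here and below, therefore does not measure how rare a gene's run is.

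The third Btg2 peak was the one peak of the 10 with a match to the p53 decamer, the motif of 10 letters that makes up each part of a p53 response element. It stands at bases 293 to 302 of the peak, and it is printed with 20 bases on either side because it is the only match among these genes, in capitals (chr1:135995873-135995922 of mm9, plus strand):
Btg2 peak 3: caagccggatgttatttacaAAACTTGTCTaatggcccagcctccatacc

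A single decamer is common. It was found on either strand in 8.7% of the 483 H3K9ac sequences, in 10.3% of the H3K27me3 sequences and in 8.36% of 32851 RefSeq promoters, so 1 in 9 is near the background. A match is a description of the letters and not evidence of binding. No match in the other peaks refers to the bases held alone.

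Trp53inp1, a p53 target that promotes stress-induced death and autophagy, had 1 peak, higher in CIH, at chr4:11082501-11084050 of mm9. It is 1550 bp wide. The only other listed peak within 50 kb was 850 bp wide, lay 31050 bp before it and was also higher in CIH. Of the 399 bases held, 86 are masked, all in the first 200.

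Nbn encodes nibrin, the subunit through which the break-sensing complex reaches ATM. Its peak, shared with Decr1, a gene of mitochondrial fatty acid oxidation, was higher in CIH and spans 1650 bp at chr4:15884801-15886450 of mm9. Its surroundings were mostly of the opposite direction. Of 4 peaks within 50 kb, 1 was higher in CIH, 350 bp wide and 33350 bp away, and it adjoined a peak of 250 bp higher in RA. The other 2, also higher in RA, lay on the far side, 900 bp wide at a distance of 5200 bp and 300 bp wide at 19900 bp.

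The available bases of the Nbn peak were uneven. The first 200 bases had a GC content of 32.5% and the following 199 bases 70.9%, with 3 and 27 CpG dinucleotides. The ratio of observed to expected CpG was 1.14, which is at percentile 98.9 of the H3K9ac sequences higher in CIH, where the median was 0.517. The CpG-rich part (chr4:15885001-15885199) is printed beside the same part of the Dcaf12 peak (chr4:41295501-41295699), which lies at the other end with 1 CpG in 399 bases, both on the plus strand of mm9 and with CG in capitals:
Nbn peak: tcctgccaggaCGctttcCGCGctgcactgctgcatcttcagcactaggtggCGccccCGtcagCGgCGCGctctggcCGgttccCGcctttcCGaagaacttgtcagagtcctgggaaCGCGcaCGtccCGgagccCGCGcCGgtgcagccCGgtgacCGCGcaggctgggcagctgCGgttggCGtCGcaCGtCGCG
Dcaf12 peak: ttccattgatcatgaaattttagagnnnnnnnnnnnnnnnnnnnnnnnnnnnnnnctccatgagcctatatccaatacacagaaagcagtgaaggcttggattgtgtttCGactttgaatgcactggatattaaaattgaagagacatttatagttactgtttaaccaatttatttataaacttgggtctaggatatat

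Each n in the Dcaf12 stretch is a base masked in the table, 30 in all. Although both peaks were higher in CIH and nearly of 1 width, they hold the highest and the lowest CpG ratio of the 9, which was 0.0776 in Dcaf12.

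Pcna, the clamp gene, had a peak higher in RA at chr2:132073851-132074850 of mm9, 1000 bp wide and shared with Tmem230, a gene of vesicle trafficking. Of the 5 peaks within 50 kb, 1 was higher in CIH, at 26700 bp, and 4 were higher in RA, at distances of 26350, 13850, 14600 and 36000 bp. These neighbours were narrower than the Pcna peak itself, at 350 to 550 bp. The Pcna peak therefore belongs to a run of 5 peaks of 1 direction, like those of Btg2 but higher in RA, spanning 64200 bp. Of all peaks higher in RA, 0.551% were in runs of 5 or more. With links of at most 20 kb the run at Pcna shortened to 3 peaks, and no peak higher in RA was then in a run of 5. The Mir34a peak, with a neighbour of 1100 bp at 38200 bp on one side and of 350 bp at 13800 bp on the other, was in a run of 4, all higher in RA, and 2.02% of the peaks higher in RA were in runs of 4 or more. With links of at most 20 kb it shortened to 2 peaks.

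**Figure D1:**
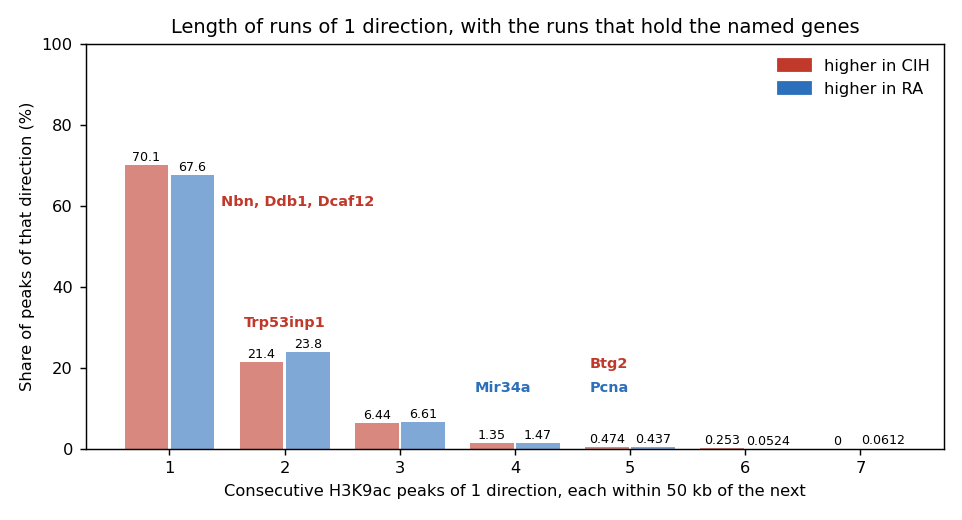
Share of the listed H3K9ac peaks of each direction (vertical axis, %) by the length of the run they belong to (horizontal axis, number of consecutive peaks of 1 direction, each within 50 kb of the next), red standing for peaks higher in CIH and blue for those higher in RA. The names stand above the run length that holds each gene's peaks, except those in runs of 1, which stand to the right of their bars. Btg2 and Pcna are in runs of 5, Mir34a in a run of 4 and Trp53inp1 in a run of 2. Nbn, Ddb1 and Dcaf12 are in runs of 1, like 70.1% of the peaks higher in CIH. A peak in a run of 1 can have neighbours within 50 kb, as at Nbn and Dcaf12.

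Ddb1 and Dcaf12 encode subunits of the same CUL4 ubiquitin ligase family, in which DDB1 is the adaptor and DCAF12 a substrate receptor. The Ddb1 peak lies at chr19:10679201-10680850 of mm9 and the Dcaf12 peak at chr4:41295301-41297000, and both were higher in CIH, with widths of 1650 and 1700 bp. No other listed peak of either mark lay within 50 kb of the Ddb1 peak, and the nearest, 71500 bp away, was higher in CIH. The Dcaf12 peak had 1 neighbour, a peak of 350 bp higher in RA at 32650 bp. Of the H3K9ac list, 24.7% of the peaks had no other peak within 50 kb.

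Bard1 was the only one of the 8 genes with a peak of the repressive mark. Its H3K27me3 peak, higher in RA, is 250 bp wide and lies at chr1:71146701-71146950 of mm9, where it is shared with Abca12, a lipid transporter gene of the epidermis. The nearest listed H3K9ac peak, higher in RA as well, was 182050 bp away, and the nearest other H3K27me3 peak, higher in CIH, 1267550 bp away. Among the 93 H3K27me3 peaks higher in RA, 48.4% had no peak of either mark within 50 kb, and the median width was 350 bp. The peak is held whole and is printed because it is the one region of these genes under this mark, with CG in capitals:
Bard1 peak: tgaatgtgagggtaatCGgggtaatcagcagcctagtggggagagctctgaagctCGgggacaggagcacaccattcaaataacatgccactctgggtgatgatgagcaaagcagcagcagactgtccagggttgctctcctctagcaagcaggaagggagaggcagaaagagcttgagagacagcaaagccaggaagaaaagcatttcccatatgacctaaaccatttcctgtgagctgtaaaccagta

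Its GC content was 50.4%, at percentile 69.5 of the H3K27me3 sequences higher in RA, and it holds 2 CpG. None of the 9 H3K9ac peaks shared a base with a listed H3K27me3 peak, and none had one within 50 kb. The H3K27me3 list has 146 peaks in all, against 20943 for H3K9ac. How many of all H3K9ac peaks lack such a neighbour was not computed, so this is not read as a trait of these genes. The smallest distance between an H3K9ac peak of these genes and a listed H3K27me3 peak was 1828950 bp, at Pcna.

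**Figure D2:**
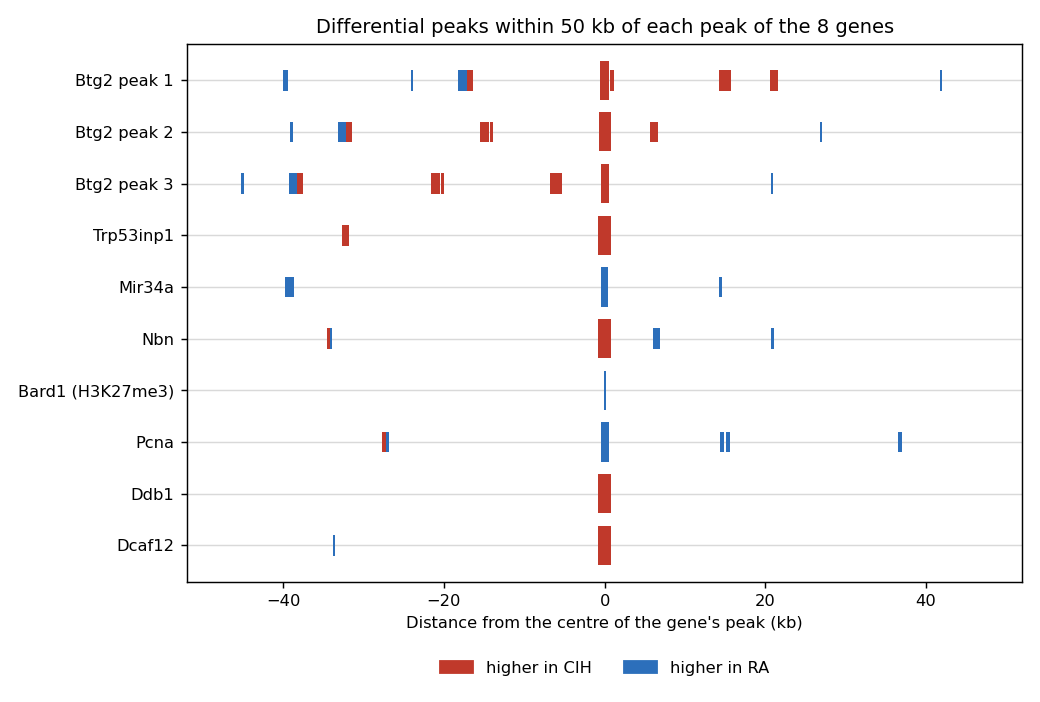
Listed peaks within 50 kb of each of the 10 peaks, drawn to scale in width against the distance from the centre of the gene's own peak in kb (horizontal axis), with red for higher in CIH and blue for higher in RA. The tall bars are the genes' own peaks and the short bars are neighbours, all of which belong to H3K9ac. Red bars follow each other at Btg2 and blue bars at Pcna and Mir34a, while Nbn and Dcaf12 have mostly or only blue neighbours and Ddb1 and Bard1 have none.

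In all, 19 different peaks outside the 10 lay within 50 kb of them, 5 with the direction of CIH and 14 with that of RA. Of the whole H3K9ac list, 54.6% had the direction of RA. The 19 leave out the 3 Btg2 peaks, which are higher in CIH and neighbour each other. Counted as pairs of a gene's peak and a neighbour, 20 of 35 had the same direction (57.1%). Over the whole H3K9ac list this share was 42.7%, but touching peaks weigh on that value. Of the H3K9ac list, 36.2% of the peaks touch another listed peak of either mark, and none of the 9 does. Without touching peaks the share over the list was 53%. Within 20 kb, 13 of 16 pairs had the same direction (81.2%, against 55.6% over the list without touching peaks). Of these, 10 came from Btg2, whose 3 peaks are neighbours of each other and count 6 times in this way. The other genes had 3 of 5 pairs of the same direction within 20 kb and 8 of 13 within 50 kb.

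All 9 H3K9ac peaks were wider than the median of the list, which was 450 bp. The 7 peaks higher in CIH were 1000 to 1700 bp wide, with a median of 1550 bp, and the peaks higher in RA 950 and 1000 bp. Among listed peaks of their own direction, whose median width was 600 bp for CIH and 300 bp for RA, the 9 stood between percentile 78 (the third of Btg2) and percentile 96.4 (Pcna). The H3K9ac gene table was restricted by the study to peaks with many reads, and against that table the widths lay nearer the middle. The part held has median widths of 1400 bp for peaks higher in CIH and 850 bp for peaks higher in RA, and in it the 9 peaks stood between percentile 18.6 (the third of Btg2) and percentile 75.2 (Dcaf12).

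**Figure D3:**
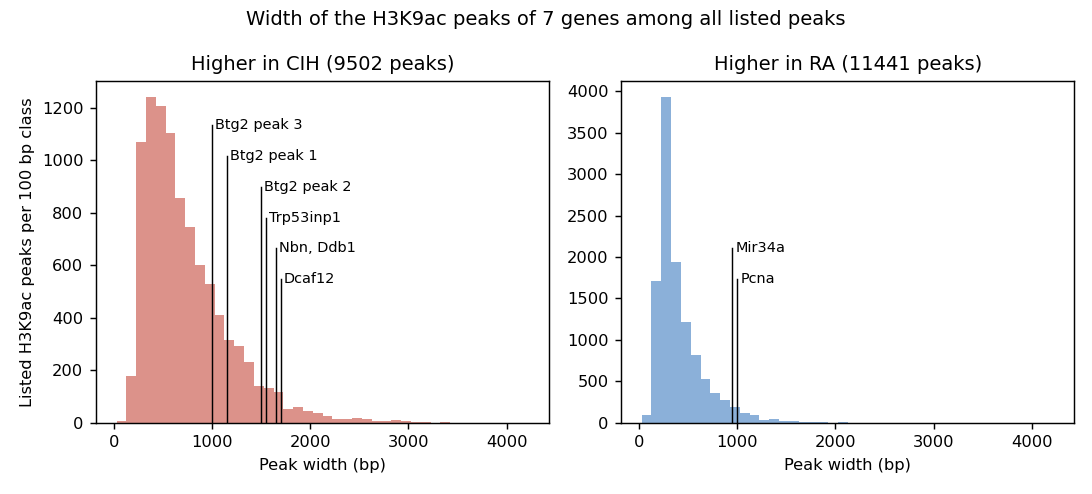
Number of listed H3K9ac peaks (vertical axis, per class of 100 bp) by width in bp (horizontal axis), with peaks higher in CIH on the left in red and peaks higher in RA on the right in blue. Black lines mark the peaks of the named genes, from 1000 to 1700 bp on the left and at 950 and 1000 bp on the right, all to the right of the bulk of the list.

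The GC content of the available bases ran from 37.4% in Dcaf12 to 62.7% in Mir34a, with a median of 48.9% over the 9 H3K9ac peaks. The medians of the H3K9ac sequences held were 52.6% for those higher in CIH and 54.1% for those higher in RA. The 3 Btg2 peaks had 47.9%, 55.6% and 52.1%, and the peaks of Trp53inp1, Nbn, Pcna and Ddb1 lay between 43.5% and 51.6%. The CpG ratio was below the median of its own direction in 7 of the 9, the exceptions being Nbn at 1.14 and Mir34a at 0.664. These comparisons are uneven, as 23.5% to 42% of each of the 9 peaks was read. The sequences held include peaks from 250 bp, of which a larger part or the whole was read.

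**Figure D4:**
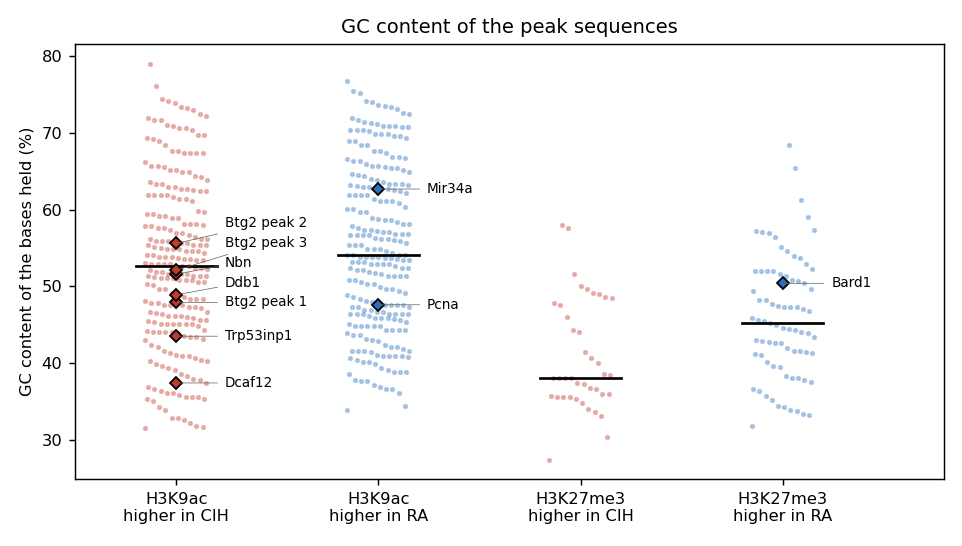
GC content in % of the available bases of each peak sequence (vertical axis) for peaks higher in CIH (red) and higher in RA (blue) of each mark (horizontal axis). Small dots are all peaks in the parts of the tables held, black lines their medians and diamonds the peaks of the named genes, of which Mir34a is the highest at 62.7% and Dcaf12 the lowest at 37.4%.

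Among other motifs, CCAAT, the NF-Y motif of many cell cycle promoters, was present on either strand in 6 of the 9 H3K9ac sequences, against 40% of all H3K9ac sequences and 37.4% of RefSeq promoters. It was found once each in the first Btg2 peak, Trp53inp1, Mir34a and Pcna, and in 2 places each in the third Btg2 peak and Dcaf12. TTTGAA, the letters of the cell cycle element CHR, was found in 4 (the first of Btg2, Nbn, Ddb1 and Dcaf12, against 22.4% of all sequences) and also in the H3K27me3 peak of Bard1, and ACGTG, the core of the site of hypoxia-inducible factors, in 2. The second Btg2 peak has 1 ACGTG and the Nbn peak has 2, while 28% of all H3K9ac sequences have it. The Sp1 motif GGGCGG occurs at 6 places in the Mir34a peak, 5 of them within the bases shared with the Gpr157 promoter, and at 2 in the second Btg2 peak (36% of all sequences hold it). No sequence of the 9 held TGANTCA (AP-1), GAGGAAG (PU.1) or CACGTG (E-box, which contains ACGTG), which 9.94%, 15.5% and 8.9% of all H3K9ac sequences hold. TGACNNNGC (NRF2) had 1 match, in Nbn, and CCGGAAG (ETS) 1, in the second Btg2 peak, with 13% and 6.83% of all sequences.

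To place the 8 genes in their pathways, 130 genes were listed in 5 groups, and 10 of them had a paired peak in the tables held. The 8 genes described here are among these 10 by choice. Of the 122 others, 2 had a paired peak (1.64%), against 2.89% of 23128 annotated protein-coding and microRNA genes. Of 38 targets and regulators of p53, Btg2 and Trp53inp1 had H3K9ac peaks higher in CIH and Mir34a one higher in RA, and Rprm, a p53 target that stops the cell cycle, had H3K27me3 peaks of both directions. These are 300 bp wide and higher in CIH, at chr2:54031401-54031700, and 500 bp wide and higher in RA, at chr2:54011201-54011700, and both are also paired with Galnt13. Of 23 genes of break sensing and ATM or ATR signalling only Nbn was found, and of 19 genes of BRCA1 complexes and recombination only Bard1. Of 27 genes of CUL4 ligases and excision repair, 3 had a peak, all H3K9ac and higher in CIH, namely Ddb1, Dcaf12 and Dcaf8, another putative receptor of the ligase. Ddb1 and Dcaf12 were chosen with their direction known, and 48.9% of the H3K9ac peaks in the table held were higher in CIH. The Dcaf8 peak, shared with Pex19, is 1400 bp wide at chr1:174077701-174079100. Of 24 genes around the PCNA clamp, Pcna alone was found. The H3K9ac table is held in part, 742 of 2932 rows, so a gene not found may stand in the rest.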

How the data were processed

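Chromatin from aorta macrophages of CIH and RA mice was sequenced after precipitation of H3K9ac or H3K27me3. The build mm9 and the tools MACS2 2.1.0, bedtools 2.23.0, Picard 1.121, SAMtools 1.2, BWA 0.7.12 and Trimmomatic 0.32 stand in the submitters' processing notes. Blacklisted and low complexity regions had been filtered out, and calls of more than 1 program had been merged. For either mark, the file deposited by the authors is a list of differential peaks over both exposures, whose score is 1000 in every row and was therefore not used. Peak edges stand in steps of 50 bp. The lists hold no counts, and no input library was used.

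The pairing of peaks with genes, the wording that gives the sign its direction and the sequences were taken from the gene tables of the study, of which the H3K9ac table is held in part and cuts sequences after 399 bases. Their numeric columns, which hold counts per peak and p-values, and the sequencing yields of the libraries were not used, so neither depth nor the size of a difference is given, and the H3K9ac table was cut by the study to peaks with many reads. The members, gene lists and motifs were chosen with earlier results of these data known. All peaks paired with the 8 genes in the parts held are named, and other genes only where they share a peak with them or belong to the lists. Gaps were measured between nearest edges, and a gap of 0 bp is called touching. Percentiles are mid-ranks. Motifs were searched on both strands, and overlapping matches were counted. Promoters (250 bases before to 50 after a start) and microRNAs came from RefSeq for GRCm38.p6 and were compared by letters alone. All 157 promoter matches were to the plus strand, with promoters of minus-strand genes read as their reverse complement. This places the peak sequences on the plus strand. Peaks on chromosome 18 were left out of this comparison. Python 3.11.15 and numpy 2.4.6 were used, and the functions were tested on simulated data. Alternatives changed the window, the touching gap, the reference of the percentiles and the bases read.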

Additional observations from a re-analysis of the deposited data

How the results depend on the processing

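The number of H3K9ac peaks higher in CIH was 5 of 5 without the peaks paired with a second gene, and 5 of 7 with each gene counted once by its widest peak. Of the 5 peaks paired with 1 gene, 3 are of Btg2, and all genes were chosen with their directions known. The number of other peaks around the 10 was 8 with a window of 20 kb and 31 with 100 kb, and the share of neighbours with the same direction was 81.2% with 20 kb. A gap of at most 500 bp in place of touching gave 1 peak, the first of Btg2. The median width percentile of the 9 peaks was 96.8 against the whole list, 95.5 against peaks of their direction and 63 against the table held. With the first 200 bases alone the median GC content was 50.5%, and the number of peaks with a match was 0 for the p53 decamer, 0 for ACGTG, 2 for CCAAT and 1 for GGGCGG. The runs of 1 direction, with links of 50 kb as well as of 20 or 100 kb, were added after seeing the data. Links of 20 or 100 kb left 3 and 4 of the 9 peaks in runs of 5 or more. A stricter score could not be used, as all scores are equal. No paired analysis was possible because each mark and exposure has 1 library. The lists do not give the depth, which limits every direction to what 2 libraries show.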
